A study of Mus musculus with 12 samples.

Results

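Microglial genes are described here across the hypothalamus of mice that drank water or alcohol from adolescence to adulthood. They are 10 genes (Aif1, Cd68, Csf1r, Cx3cr1, P2ry12, C1qa, C1qb, Itgam, Tyrobp and Trem2), taken by symbol from the 27827 symbols of the array, where they have 16 of the 41174 probes. All samples were hypothalamus of male ICR mice, an outbred stock with no genetic change, which were 3 weeks old when they began to adapt to the drinking tubes. Water mice had water in both tubes, and alcohol mice had 5% or 10% alcohol in one tube and water in the other until they were killed on day 57 by the series' text (day 51 by the sample labels). The labels name 3 water arrays, 3 of low alcohol drinkers, 3 of early alcohol drinkers and 3 of late alcohol drinkers, the last 2 groups called high drinkers in the descriptions, and the strength of alcohol of each pool and the amounts drunk, which the study's text gives, are not used here. Each array carried a pool of RNA: 3 mice for each water pool, 9 mice in all, and 1 to 3 mice for each alcohol pool, 19 in all. The study's supplement lists 3 mice for each pool of less consumption and 1 or 2 for each of more. Pool size therefore goes with the amount drunk. A pool of 1 mouse does not average over animals as a pool of 3 does, and p-values here measure the spread between pools.

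The 12 arrays lay on 3 slides. All 3 water arrays shared slide 1 with the first low drinker array. Slide 2 carried low drinker pools 2 and 3 beside the arrays of early drinker pools 1 and 2, while early drinker pool 3 was hybridised on slide 3 with all late drinkers. Alcohol and water therefore met on slide 1 alone, through 1 alcohol pool, and elsewhere slide and alcohol cannot be told apart. The share of spots well above background ran from 67.0% to 79.3% over the arrays. All 7 hypothalamic marker genes examined, among them those of orexin, vasopressin, oxytocin and Agrp, were well above background on all 12 arrays. The smallest number of arrays per group, 3, limits the precision of every value below.

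Microglia are the resident macrophages of the brain and descend from the yolk sac. They live on signals through the colony stimulating factor 1 receptor (Csf1r), read neuronal fractalkine through Cx3cr1 and nucleotides from injured cells through P2ry12, and tag synapses and debris with C1q, the first component of complement. Trem2 senses lipids and signals through the adaptor Tyrobp, Itgam is the alpha chain of complement receptor 3, Cd68 is a lysosomal protein of phagocytes, and Aif1 encodes Iba1, the usual stain for microglia. In whole hypothalamus, fewer microglia and less RNA per microglial cell cannot be told apart.

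Of the 16 probes, 15 were well above background on all 12 arrays and the last, a second probe of Cx3cr1, on 11. All 16 passed the filter on weak signals. A single probe reads Cd68, P2ry12, C1qa, C1qb and Tyrobp, and the remaining 5 genes have several, of which the brightest is used unless another is named. What such a probe reads is shown for 4 of them that lie in coding sequence and on which single pools stood out below. Cd68, the only member with an unadjusted p under 0.05 by limma in alcohol against water, is not among them. The probes of C1qa (mm9 chr4:136452409-136452468, minus strand) and C1qb (chr4:136436578-136436637, minus strand) read the part that encodes the globular heads of C1q. The Tyrobp probe (chr7:31200651-31202378, plus strand) crosses an intron and reads the cytoplasmic end of the adaptor. The second Aif1 probe (chr17:35308497-35308742, minus strand) also crosses an intron and reads the calcium-binding part of Iba1. Each is given 5′ to 3′ as the array files hold it, in the sense of the transcript, with no letter marked.
C1qa: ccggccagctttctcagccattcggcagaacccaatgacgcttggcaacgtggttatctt
C1qb: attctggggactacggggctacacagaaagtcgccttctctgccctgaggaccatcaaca
Tyrobp: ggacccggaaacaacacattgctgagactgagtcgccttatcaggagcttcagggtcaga
Aif1: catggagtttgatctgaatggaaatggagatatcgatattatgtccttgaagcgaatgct

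Levels below are on a log2 scale, with the 75th percentile of each array subtracted, so that 0 is the level of that percentile and a difference of 1 is a doubling. They compare arrays for the same probe and not one gene with another. The SD over 12 arrays had a median of 0.15 over the members, from 0.12 for Aif1 to 0.24 for Trem2, and a median of 0.14 over all 29521 probes with a value on every array. In every member, the ranges of groups that were neighbours in the order of their means overlapped (30 of 30 neighbouring pairs), where 7.98% of such pairs over all probes with 12 values were apart. The late drinkers had the highest mean for 5 genes and water for 4, and the lowest mean was that of the early drinkers for 4 genes and of the low drinkers for 3.

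**Figure D1:**
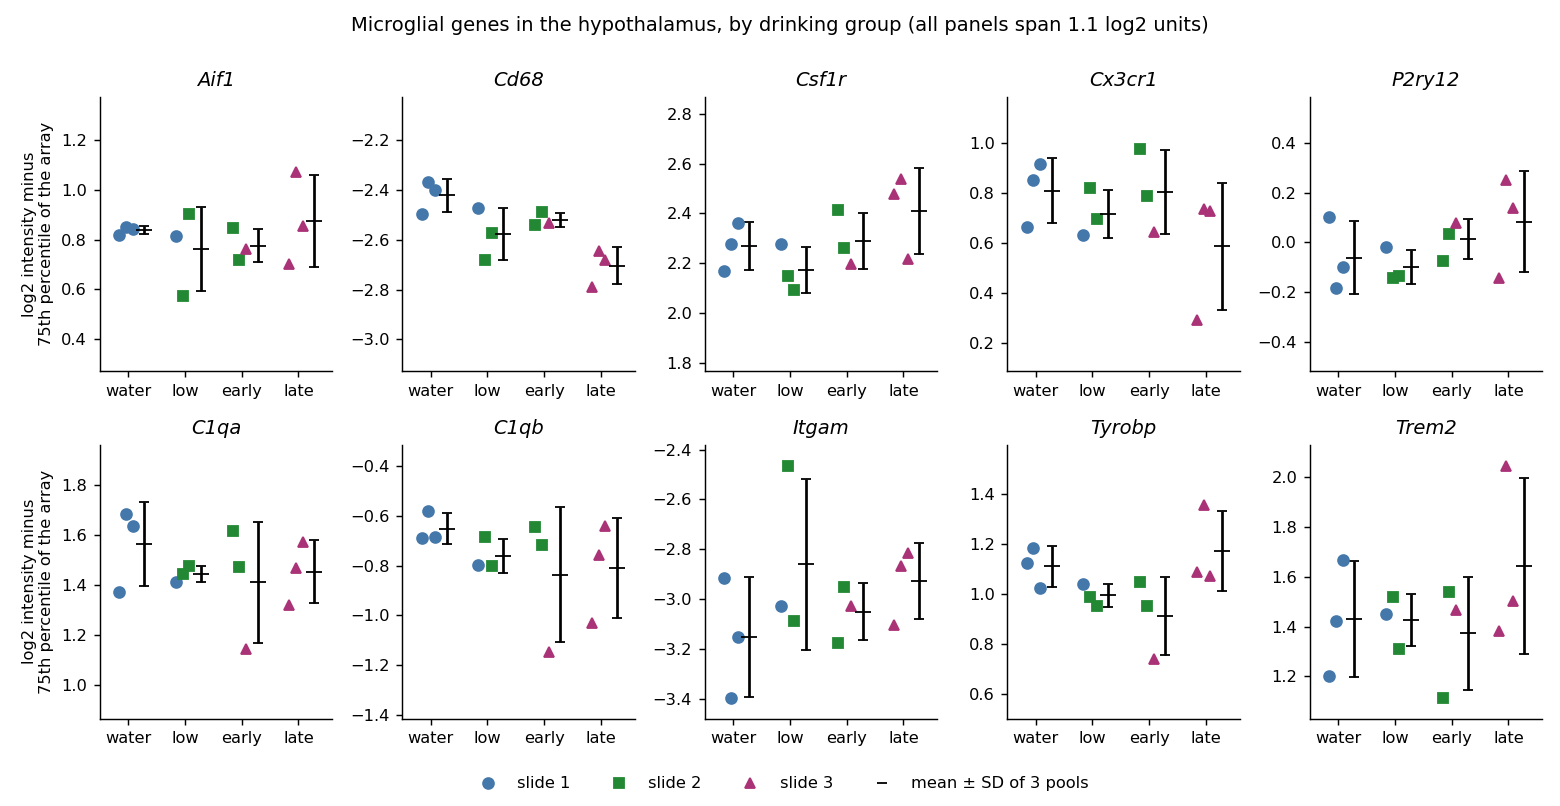
Level of each microglial gene (log2 intensity minus the 75th percentile of the array, brightest probe) in each of 12 pools by drinking group, with the mean ± SD of 3 pools beside the points and the slide shown by colour and shape. The ranges of groups with neighbouring means overlap in all 10 genes, and the water and late pools each lie on 1 slide.

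The first question was whether alcohol shifted these genes against water. With limma, 1 of 10 genes, Cd68, differed at an unadjusted p under 0.05, where 5.53% of all 32376 probes did. After Benjamini-Hochberg adjustment over all probes no member passed 0.05, as 0.0% of all probes did (smallest adjusted p of a member 0.819). No member had every alcohol pool on one side of every water pool, which 1.31% of probes with 12 values had. The median difference of the 10 genes was -0.06, with 4 higher and 6 lower, and that of all probes was 0.03. For all alcohol pools against water, the median of all probes was -0.01 with quantile normalization and -0.03 with median centring. Each drinking group was also set against the same 3 water arrays, with no test. In low drinkers 1 member was higher and 9 lower (median -0.10, beside 0.04 over all probes, of which 63.8% were higher). In early drinkers 3 were higher and 7 lower (-0.06, beside 0.02 and 55.8%). In late drinkers 6 were higher and 4 lower (0.05, beside 0.0032 and 50.8%). On slide 1 alone, low drinker pool 1 against water had 4 members higher (median -0.04, beside -0.0081 over all probes).

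Cd68, the phagocyte lysosomal protein, had a lower mean in alcohol pools, short of the adjusted threshold. Its 3 water pools read -2.50, -2.37 and -2.40, its low drinker pools -2.47, -2.68 and -2.57, its early drinker pools -2.54, -2.49 and -2.53, and its late drinker pools -2.79, -2.64 and -2.68. The late pools lay below every water and early pool, with low drinker pool 2 among them, while low drinker pool 1 and early drinker pool 2 lay within the range of water. Alcohol against water gave -0.18 (standard error 0.07, 95% interval -0.33 to -0.03, adjusted p = 0.819). The exact permutation test, which runs through the 220 choices of 3 arrays as water, gave a 2-sided p = 0.0273, where 0.00455 is the smallest it can give. All 9 alcohol pools lay below the mean of water. On slide 1, low drinker pool 1 lay 0.05 below the mean of the water pools, and a fit that held slide as a fixed block rests on that pair of groups and gave -0.05. Over 24 alternatives the difference stayed below 0 and was under 0.05 in unadjusted p in 19. Leaving out water pool 2 (-0.15) or water pool 3 (-0.17), holding slide as a block, whether fixed or random, or dropping the scaling took the unadjusted p above 0.05.

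For the other 9 members the 95% intervals held 0. Among the surface receptors, Csf1r differed by 0.02 (interval -0.18 to 0.23) and P2ry12 by 0.06 (-0.14 to 0.26). Cx3cr1 differed by -0.11 (-0.36 to 0.14) and Trem2 by 0.05 (-0.29 to 0.39). The second, dim Cx3cr1 probe gave 0.09, and the mean of both probes -0.011. Leaving out water pool 1 took Cx3cr1 to -0.18, and leaving out water pool 3 or late drinker pool 1 took it to -0.06. Tyrobp, the adaptor of Trem2, differed by -0.08 (-0.30 to 0.13), and Aif1 by -0.03 (-0.22 to 0.15). When an array was left out, Tyrobp lay between -0.13 and -0.048 and Aif1 between -0.065 and -0.0030. The intervals of Aif1, Csf1r and P2ry12 lay within a fold of 0.861 to 1.20, and those of Itgam and Trem2 reached a fold of 1.43 and 1.31. All of these intervals come from a fit without slide, and slide 1 holds every water array.

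C1qa and C1qb each had a lower mean in alcohol pools, within the spread. C1qa read 1.37, 1.68 and 1.64 in water, 1.41, 1.44 and 1.48 in low drinkers, 1.62, 1.47 and 1.14 in early drinkers and 1.32, 1.47 and 1.57 in late drinkers. Its lowest pool was early drinker pool 3 and its highest water pool 2, and water and alcohol overlapped. C1qb read -0.69, -0.58 and -0.69 in water, -0.80, -0.68 and -0.80 in low drinkers, -0.65, -0.72 and -1.15 in early drinkers and -1.03, -0.76 and -0.64 in late drinkers. It had the same lowest and highest pools as C1qa. The differences of alcohol against water were -0.13 for C1qa (standard error 0.10, adjusted p = 0.825) and -0.15 for C1qb (standard error 0.10, adjusted p = 0.820). The exact permutation p values were 0.223 and 0.136. C1qa was at -0.23 without water pool 1 and at -0.070 without water pool 2, neither under 0.05 in unadjusted p.

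Itgam, the receptor chain that binds cleaved C3, had the largest difference upwards of the 10. Its water pools read -2.91, -3.40 and -3.15, its low drinker pools -3.03, -2.46 and -3.09, its early drinker pools -3.18, -2.95 and -3.03, and its late drinker pools -3.10, -2.87 and -2.82. The mean of alcohol rested in part on low drinker pool 2, the highest of 12, and that of water on pool 2, the lowest. Alcohol against water was 0.21 (standard error 0.14, adjusted p = 0.820). It was 0.09 without water pool 2 and 0.33 without water pool 1. The second, dimmer Itgam probe gave 0.07 (standard error 0.18).

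**Figure D2:**
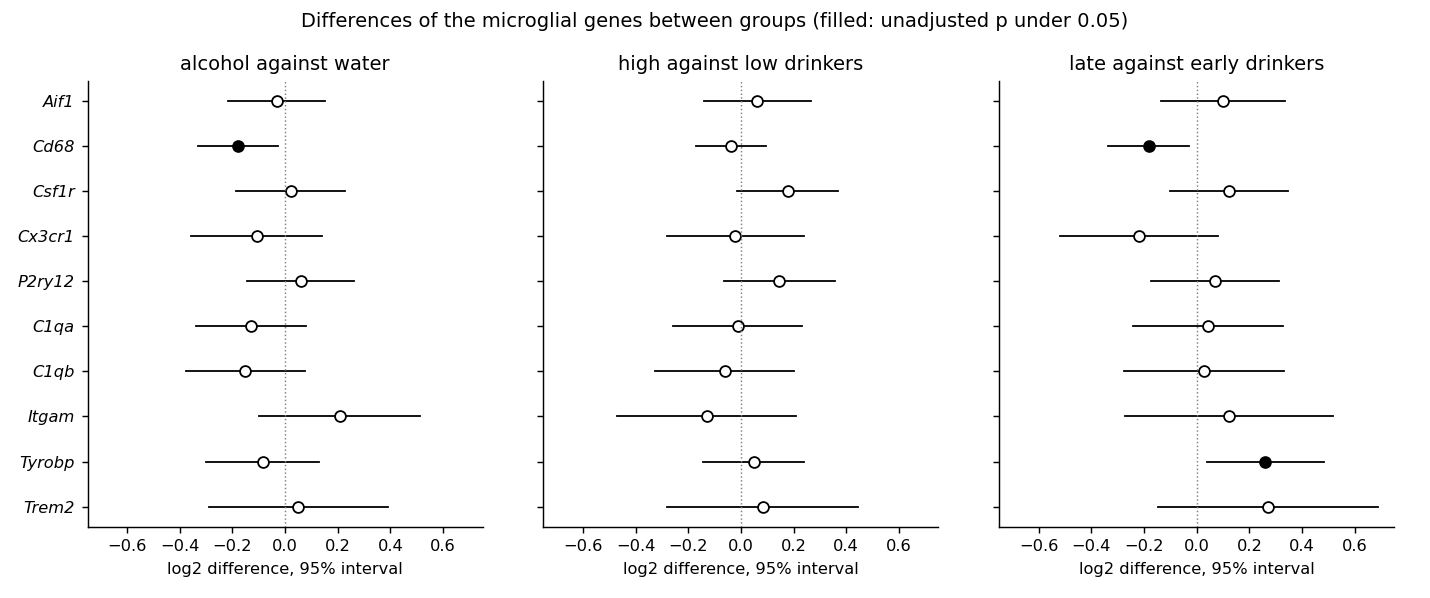
Log2 difference of each microglial gene with its 95% interval (limma) for alcohol against water, high against low drinkers and late against early drinkers, with filled points for an unadjusted p under 0.05. Filled points are Cd68 at -0.18 in the left panel and Cd68 at -0.18 and Tyrobp at 0.26 in the right panel.

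The second question was whether the amount drunk mattered among alcohol pools, with the 6 high drinker pools (early and late) set against the 3 low ones. No member differed at an unadjusted p under 0.05, where 14.7% of 31622 probes did, and none at an adjusted p under 0.05, where 0.0379% did (12 probes). The members had a median of 0.02, with 5 higher and 5 lower, against -0.05 over all probes. The scaling moved the median of all probes from -0.05 to 0.08 with median centring, and the median of the members moved with it to 0.15. The smallest p was that of Csf1r, the receptor that keeps microglia alive. It read 2.28, 2.15 and 2.09 in low drinkers, 2.41, 2.26 and 2.20 in early drinkers and 2.48, 2.54 and 2.22 in late drinkers, beside 2.17, 2.28 and 2.36 in water. The low drinkers held the 2 lowest pools of the 12 and overlapped with the high drinkers through pool 1. The difference was 0.18 (standard error 0.09, interval -0.02 to 0.37, adjusted p = 0.367). It passed an unadjusted p of 0.05 in 5 of 23 alternatives. A second Csf1r probe gave 0.13 (adjusted p = 0.393) and the third, dim probe -0.41 (adjusted p = 0.437). Averaging the 3 probes turned the difference to -0.04. On the brightest probe it was 0.312 with median centring, 0.305 with no scaling and 0.32 with slide as a fixed block. P2ry12, the purine receptor of resting microglia, was next with 0.15 (standard error 0.09, adjusted p = 0.468). It was 0.28 with median centring and 0.27 with no scaling, and passed an unadjusted p of 0.05 in 2 of 23 alternatives. Its 12 pools lay between -0.18 in water pool 2 and 0.25 in late drinker pool 2. Itgam differed by -0.13 (standard error 0.15), and by 0.07 without low drinker pool 2.

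Late against early drinkers, 3 pools against 3, was the third comparison. Here 2 of 10 members differed at an unadjusted p under 0.05, Cd68 lower and Tyrobp higher, where 12.4% of 31622 probes did. After adjustment no member passed, nor did any of the other probes (0.0%). The median of the members was 0.08, with 8 higher and 2 lower, and that of all probes was -0.03. Cd68 differed by -0.18 (standard error 0.07, adjusted p = 0.350), and its late and early pools did not overlap. The unadjusted p was under 0.05 in 16 of 23 alternatives. Among those where it was not, quantile normalization gave -0.11, no scaling -0.03, and the fit without late drinker pool 1 gave -0.14. Within slide 3 the mean of the late pools lay 0.17 below early drinker pool 3.

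Tyrobp showed the opposite sign. It read 1.13, 1.18 and 1.02 in water, 1.04, 0.99 and 0.95 in low drinkers, 1.05, 0.95 and 0.74 in early drinkers and 1.09, 1.36 and 1.07 in late drinkers. Every late pool lay above every early and low pool, and late drinker pool 2 stood highest of 12. The difference of late against early was 0.26 (standard error 0.10, interval 0.04 to 0.48, adjusted p = 0.354). Within slide 3 the late pools lay 0.43 above early drinker pool 3, the lowest pool of 12. The unadjusted p was under 0.05 in 21 of 23 alternatives, and the exceptions were the fit without early drinker pool 3 and the fit without late drinker pool 2, each at 0.17. Trem2, its partner, differed by 0.27 (standard error 0.19, adjusted p = 0.582), and late drinker pool 2 again was the highest. Without that pool the difference of Trem2 was 0.068. C1qb, at 0.03 in this comparison, was at 0.34 (adjusted p = 0.967) when slide was a fixed block, a fit that sets the late pools against early drinker pool 3 alone. Cx3cr1 differed by -0.22 (standard error 0.13, adjusted p = 0.531), and its lowest pool was late drinker pool 1. It was -0.072 without that pool and -0.060 when slide was a fixed block.

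Any difference among the 4 groups was tested last, with a moderated F test. Cd68 passed an unadjusted p of 0.05 (adjusted p = 0.244), 1 of 10 members against 14.4% of all probes. No member passed after adjustment, where 0.00632% of probes did. The order of its means was water at -2.42 ± 0.07 (SD, n = 3), early drinkers at -2.52 ± 0.03, low drinkers at -2.58 ± 0.10 and late drinkers at -2.70 ± 0.08, and each mean was within overlapping ranges of its neighbour. The pools that the 3 tests of Cd68 used are the same, so these are not separate pieces of evidence.

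The members did not form one block across arrays. Over the 45 pairs of members, Pearson's r over the 12 arrays had a median of 0.19 and ran from -0.55 (Cd68 and Itgam) to 0.87 (C1qa and C1qb), and the median over all pairs of probes was 0.04. An r of at least 0.6 was reached by 3 pairs, or 6.67%, and by 6.61% of all pairs of probes. The 3 pairs were C1qa with C1qb, C1qb with Cx3cr1 (r = 0.70) and C1qa with Cx3cr1 (r = 0.68). All arrays of a slide share that slide, and after the mean of each slide was taken away the median r of the member pairs was 0.31.

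**Figure D3:**
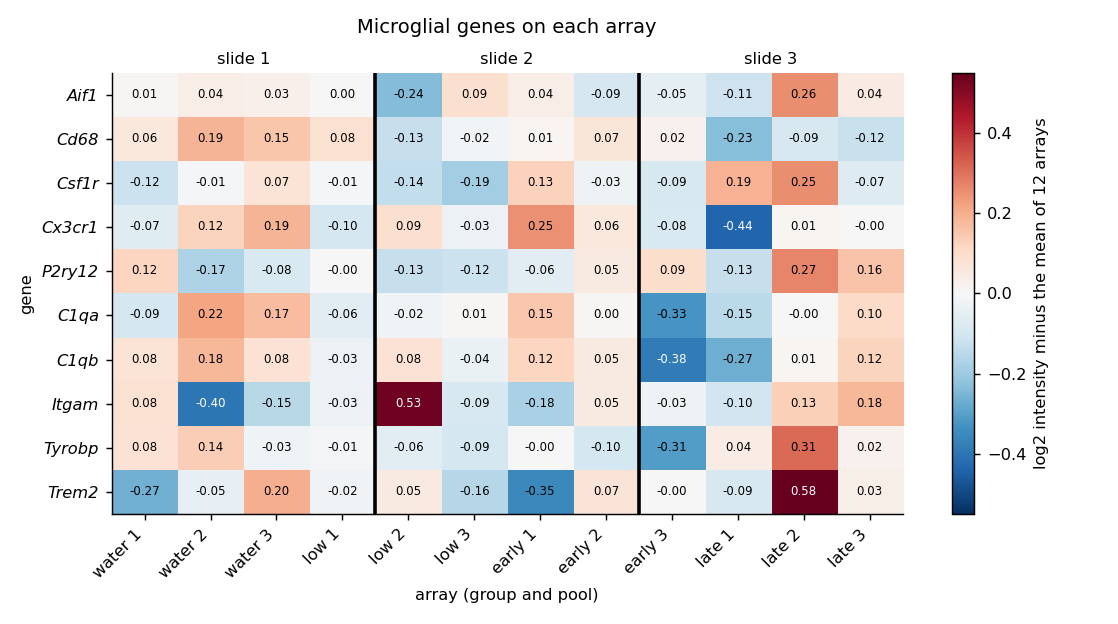
Level of each microglial gene on each array minus its mean over 12 arrays (log2, red higher and blue lower), with arrays ordered by slide. Late drinker pool 2 is the highest array for 5 genes, and C1qa and C1qb are lowest on early drinker pool 3.

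Single pools stood out more than groups. The mean of the 10 centred members was highest in late drinker pool 2, at 0.17, which held the highest value of 5 genes (Aif1, Csf1r, P2ry12, Tyrobp and Trem2). It was lowest in late drinker pool 1 at -0.13 and early drinker pool 3 at -0.12. Water pools lay between -0.01 and 0.06, low drinker pools between -0.06 and 0.0043, and early drinker pools between -0.12 and 0.01. The pool with the highest mean and the one with the lowest were thus of one group and one slide. The labels do not give the number of mice in each of these pools, and its part was not tested. On the same arrays, the mean of 3 red cell genes was lowest in late drinker pool 2, at -0.59, that of the monocyte and neutrophil genes S100a8 and S100a9 was lowest there, at -1.06, and that of 4 astrocyte genes was highest, at 0.16. The mean of 26 further microglial genes, taken up below, was 0.02 in this pool. It was highest in low drinker pool 2, at 0.10, and lowest in late drinker pool 1, at -0.26. The part of the red cell, monocyte, neutrophil and astrocyte genes in the high level of the members in this pool was not tested.

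C1qa, C1qb and C1qc encode the 3 chains of 1 protein and are neighbours on chromosome 4. Across the 12 arrays C1qa and C1qb had r = 0.87 (Spearman's rho 0.75, and r = 0.70 without the 2 arrays farthest in C1qa), and r = 0.84 after slide means were taken away. C1qc had r = 0.72 with C1qa and 0.68 with C1qb, and 0.39 and 0.36 without the 2 farthest arrays. It read 0.50, 0.59 and 0.51 in water, 0.35, 0.21 and 0.41 in low drinkers, 0.47, 0.53 and 0.03 in early drinkers and 0.41, 0.65 and 0.71 in late drinkers. Early drinker pool 3 was thus the lowest array for all 3 chains. Its difference for alcohol against water was -0.12 (standard error 0.12, adjusted p = 0.856). For late against early drinkers it was 0.25 (adjusted p = 0.470), 0.56 when slide was a fixed block (adjusted p = 0.739) and 0.090 without early drinker pool 3, on which the block fit rests.

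**Figure D4:**
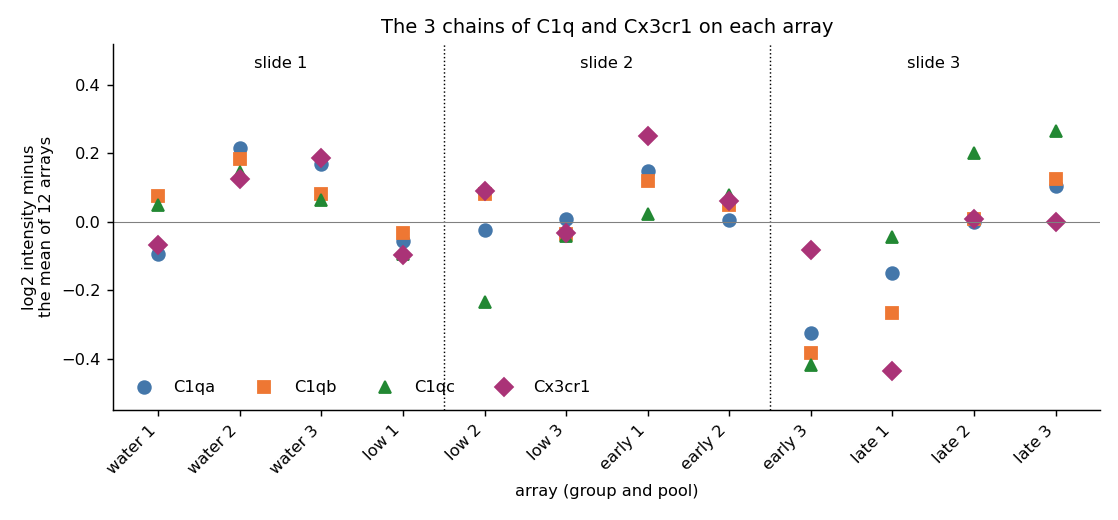
Level of C1qa, C1qb, C1qc and Cx3cr1 on each array minus the mean over 12 arrays (log2), with dotted lines between slides. The 3 C1q chains are lowest together on early drinker pool 3, where Cx3cr1 is at -0.08, and Cx3cr1 is lowest on late drinker pool 1, at -0.44.

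Probes of the same gene agreed for Trem2 and Aif1 and less so for the rest. The 2 Trem2 probes had r = 0.96 over 12 arrays (rho 0.92, r = 0.84 without the 2 farthest arrays) and the 2 Aif1 probes r = 0.88 (rho 0.68). On the second Trem2 probe late drinker pool 2 read -0.17 and the remaining pools lay between -1.17 and -0.67, so the high level of that pool was seen on both probes. On the second Aif1 probe, printed above, it read -0.37 and the others at most -0.57. The 2 brighter Csf1r probes had r = 0.05 and the Cx3cr1 probes r = 0.46. For Itgam r was 0.56, but -0.32 without the 2 farthest arrays.

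Low drinker pool 2 was the highest array for the dim probes. It read -3.55 for the third Csf1r probe, -3.60 for the second Cx3cr1 probe and -3.51 for the second Itgam probe, which was 0.60, 0.74 and 0.40 above the next array. On the bright probes of Csf1r and Cx3cr1 it was not the highest. The 25th percentile of the unscaled intensity was 63.2 on this array and between 22.3 and 34.0 on the other 11. The part of this difference in the high values of the dim probes was not tested.

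**Figure D5:**
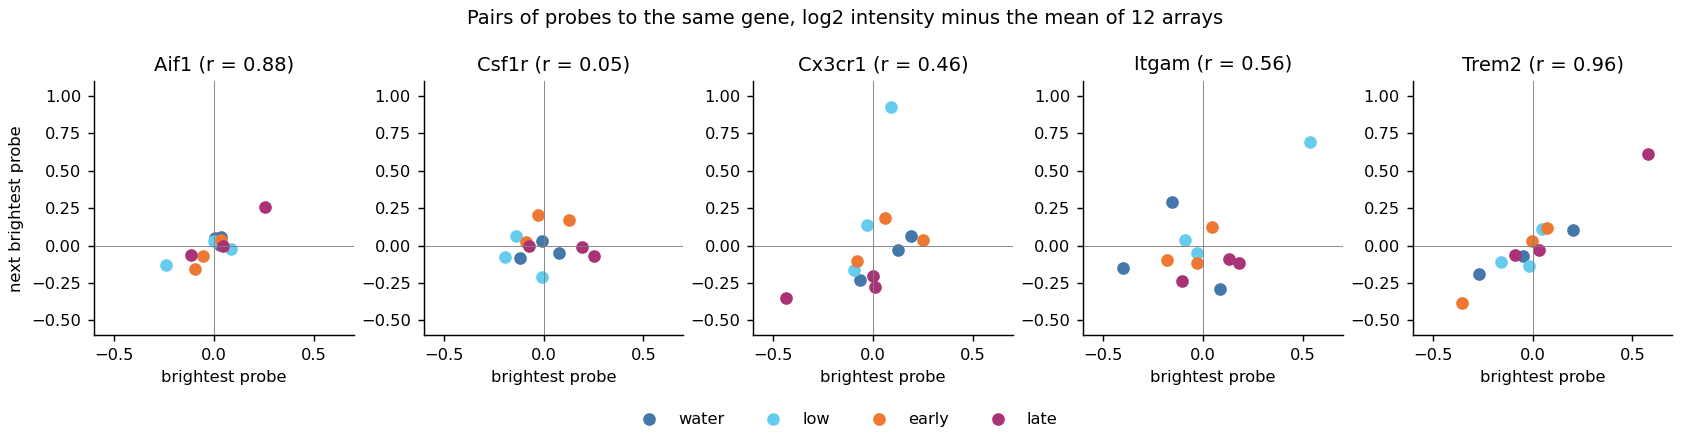
Brightest against next brightest probe for the 5 microglial genes with several probes, each as log2 intensity minus its mean over 12 arrays, coloured by group. Late drinker pool 2 stands at the upper right for Trem2 and Aif1, and low drinker pool 2 stands high on the vertical axis for Cx3cr1 and Itgam.

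Partners of the members were also measured. Among the ligands, Csf1 differed between alcohol and water by 0.08 (standard error 0.05, adjusted p = 0.819), Il34, the other ligand of Csf1r, by 0.04 (standard error 0.07), and Cx3cl1, which encodes fractalkine, by 0.10 (standard error 0.07, adjusted p = 0.819). Cx3cl1 was at -0.09 when slide was a fixed block. Itgb2, the beta chain that pairs with Itgam, had a difference of 0.0012 (standard error 0.14). Across the arrays r was -0.04 for Csf1 with Csf1r, 0.33 for Il34 with Csf1r, -0.41 for Cx3cl1 with Cx3cr1, 0.35 for Itgb2 with Itgam and 0.39 for Tyrobp with Trem2. Without the 2 arrays farthest in the member, these were -0.55, 0.18, -0.28, -0.04 and -0.25 in the same order, and the sign turned for Itgb2 with Itgam and for Tyrobp with Trem2.

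Of 26 further microglial genes, such as Tmem119 and P2ry13, all passed the filter and 25 were well above background on all 12 arrays. Alcohol against water gave a median of -0.06 over these 26 genes, and 3 of them, each lower, had an unadjusted p under 0.05, beside 5.53% of all probes. Gpr34, a lysophosphatidylserine receptor, differed by -0.29 (standard error 0.11), from -1.67, -1.83 and -1.65 in water pools to between -2.39 and -1.78 in alcohol pools. Ptprc, the leukocyte antigen CD45, differed by -0.21 (standard error 0.08) and Fcgr3, an Fc receptor, by -0.24 (standard error 0.11). The adjusted p of each was 0.819. The unadjusted p was under 0.05 in 20 of 24 alternatives for Gpr34, in 18 for Ptprc and in 10 for Fcgr3. Gpr34 was at -0.067 when slide was a fixed block, Ptprc at -0.12 with the mean of its probes, and Fcgr3 at -0.15 without water pool 3. In each of the 3 genes 1 alcohol pool reached into the range of water, low drinker pool 1 for Gpr34, late drinker pool 2 for Ptprc and late drinker pool 1 for Fcgr3. In high against low drinkers, 2 of 26 had an unadjusted p under 0.05, both lower, beside 14.7% of all probes. Cd53, a tetraspanin of leukocytes, differed by -0.36 (standard error 0.11, adjusted p = 0.225), with late pools between -3.59 and -3.10, early pools between -3.12 and -2.84 and low pools between -2.90 and -2.66. Its unadjusted p was over 0.05 with quantile normalization (-0.20), median centring (-0.23) and no scaling (-0.24). Sall1, a transcription factor of microglia, differed by -0.53 (standard error 0.20, adjusted p = 0.280), with low drinker pool 2 at -2.93 and the other 11 pools between -4.19 and -3.70. Without that pool it was -0.21 and no longer under 0.05 in unadjusted p. In late against early drinkers 5 of 26 had an unadjusted p under 0.05, beside 12.4% of all probes. Fcgr3 (0.31) and Inpp5d, a lipid phosphatase (0.21), differed upwards, and Fcrls, an Fc receptor-like protein (-0.77), Selplg, a ligand of selectins (-0.43), and Cd53 (-0.34) downwards, with adjusted p from 0.313 to 0.389. The unadjusted p was under 0.05 in 23 of 23 alternatives for Selplg, 21 for Fcgr3, 17 for Cd53, 16 for Fcrls and 12 for Inpp5d. Cd53 was at -0.18 with no scaling, and at -0.20 without late drinker pool 1.

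Of 16 genes that reactive microglia raise, 15 passed the filter for alcohol against water and by limma 0 of them reached an unadjusted p of 0.05, beside 5.53% of all probes. Their median was 0.04. In high against low drinkers 3 of 13 did, all lower (Tlr2, Gpnmb and Tnf), beside 14.7% of all probes. The median of the 13 was -0.15, beside -0.05 over all probes. The 13 include Tnf and Il1b, which were well above background on 0 of 12 arrays. In late against early drinkers 1 of 13 did, beside 12.4%, with a median of -0.12, beside -0.03 over all probes. It was Lpl, lipoprotein lipase, at -0.30 (standard error 0.09, adjusted p = 0.313), and at -0.14 with no scaling, where its unadjusted p was over 0.05. Tlr2 differed by -0.28 (standard error 0.11, adjusted p = 0.296). It was under 0.05 in unadjusted p in 15 of 23 alternatives, and was -0.15 with median centring and -0.19 without low drinker pool 2. Gpnmb differed by -1.72 (standard error 0.33, adjusted p = 0.0994), was well above background on 10 of 12 arrays and lay at -0.70 when slide was a fixed block. Its unadjusted p was under 0.05 in 17 of the 20 alternatives that could be fitted, and its adjusted p was 0.0434 with the normexp background correction, at -0.90. The unadjusted p was over 0.05 with that slide block, with quantile normalization (-1.01) and with no filter on dim spots (-1.01). By limma, some alternative also gave an adjusted p under 0.05 for high against low drinkers in Sall1 (lowest 0.0305), S100a8 (0.0208), S100a9 (0.0218) and Cd3e (0.0311). The same held for Cd3e in late against early drinkers (0.0187). For the probe of Tnf 0 of 12 arrays were well above background, so no fold is given, and those of Il1b and Cd8a were likewise dim on all 12. Of 5 complement genes beyond C1q, 4 passed the filter for alcohol against water, and by limma 0 of them reached an unadjusted p of 0.05, too few to set against the 5.53% of all probes.

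Markers of other cells that share these genes were examined beside them. Of 5 border macrophage genes 0 had an unadjusted p under 0.05 in any of the 3 comparisons by limma, beside 5.53%, 14.7% and 12.4% of all probes. Their summed level over 4 of them, as a mean of centred values, lay between -0.28 and 0.05 in water, 0.03 and 0.19 in low drinkers, -0.73 and 0.41 in early drinkers and -0.0033 and 0.11 in late drinkers. Of 5 monocyte and neutrophil genes, Ccr2 did not pass the filter. Both that were tested among the drinkers, S100a8 and S100a9, had an unadjusted p under 0.05 in high against low drinkers, beside 14.7% of all probes, and differed by -0.73 (standard error 0.19, adjusted p = 0.176) and -0.88 (standard error 0.22, adjusted p = 0.160). S100a8 was well above background on 8 of 12 arrays, and with quantile normalization it was -0.29 and no longer under 0.05 in unadjusted p. Their mean lay between 0.19 and 0.48 in water, -0.03 and 0.70 in low, -0.15 and -0.03 in early and -1.06 and -0.30 in late drinkers. Of 5 lymphocyte genes 4 were tested there and 2 were lower at an unadjusted p under 0.05, Cd3e and Cd8a, which is dim on all arrays. Cd3e differed by -0.41 (standard error 0.09, adjusted p = 0.124), and by -0.14 with quantile normalization, where the unadjusted p was over 0.05. Its means were -4.15 in water, -3.42 in low, -3.35 in early and -4.32 in late drinkers, and late against early gave -0.98 (standard error 0.11, adjusted p = 0.0686). The mean of 4 lymphocyte genes lay between -0.39 and -0.29 in water, -0.24 and 1.00 in low, -0.04 and 0.40 in early and -0.40 and -0.25 in late drinkers. The highest value was that of low drinker pool 2, the array with the highest 25th percentile. The part of blood cells in the levels of the microglial genes was not tested. Over the 12 arrays the mean of the members had r = 0.53 with that of the 26 further microglial genes, and also r = 0.53 with that of the astrocyte genes. It had r = -0.47 with the red cell, -0.45 with the endothelial and -0.27 with the monocyte and neutrophil genes. Without the 2 arrays farthest in the mean of the members these were 0.36 for the further microglial, 0.22 for the astrocyte, -0.34 for the red cell, -0.25 for the endothelial and -0.11 for the monocyte and neutrophil genes. Endothelial and neuronal genes gave 0 genes at an unadjusted p under 0.05 by limma in each comparison. Mbp of oligodendrocytes (0.18, adjusted p = 0.338) and the hypothalamic Trh (0.24, adjusted p = 0.335) differed between high and low drinkers, each at an unadjusted p under 0.05. They were 1 of 4 and 1 of 7 genes tested in their lists, beside 14.7% of all probes. That held in 9 of 23 alternatives for Mbp, which was at 0.0091 with the mean of its probes, and in 11 for Trh.

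The genes whose pattern over 12 arrays was most like the mean of the members were looked up among all probes. Among the 10 highest were Krtap16-3 (r = 0.88), Srsf10 (0.86), Smug1 (0.86), Bhlha15 (0.85), Sln (0.84), Uqcrq (0.83), Ripor2 (0.82), Oxsm (0.82) and Metap2 (0.81). They were picked as the top of 29521 probes with 12 points each, so their r is a description and is high by choice. Over the 26 further microglial genes r with the mean of the members ran from -0.20 for Selplg to 0.68 for C1qc.

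RefSeq promoters (GRCm38.p6) were at hand for 7 members, and are shown because many microglial genes are bound by PU.1, the factor that macrophages depend on. The motif GAGGAA, the core of its site, was searched on both strands in the 250 bases before the start. It occurred in 5 of 7 member promoters (Aif1, C1qb, Cd68, Itgam and Trem2) and in 23.3% of all 32851 promoters. P2ry12 and Cx3cr1 had no match in this window. The stretches that hold the matches are given 5′ to 3′ on the strand of the gene, with the motif or its reverse complement in capitals. They lie at chr4:136886205-136886250 (minus strand), chr11:69666370-69666415 (minus), chr7:128062536-128062639 (plus), chr17:48346341-48346386 (plus) and chr17:35176053-35176079 (minus), in that order.
C1qb: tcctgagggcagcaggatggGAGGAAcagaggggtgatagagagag
Cd68: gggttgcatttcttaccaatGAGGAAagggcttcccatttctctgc
Itgam: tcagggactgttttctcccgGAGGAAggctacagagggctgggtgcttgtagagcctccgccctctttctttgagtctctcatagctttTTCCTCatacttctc
Trem2: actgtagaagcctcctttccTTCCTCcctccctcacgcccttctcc
Aif1: ccgtggtgataggcacccagTTCCTCc
The match starts 30 bases before the start in C1qb, 225 in Cd68, 40 in Trem2 and 7 in Aif1, and Itgam has one at 84 and one at 15. Spi1, which encodes PU.1, was well above background on 5 of 12 arrays and differed between alcohol and water by -0.07 (standard error 0.22, adjusted p = 0.956).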

How the data were processed

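The authors deposited 12 Agilent scanner files with background-corrected signal intensity per spot on a linear scale (Feature Extraction 10.5.1.1 per the file headers), with no scaling between arrays, and a table of the same intensities per probe. Spots that the scanner software marked as non-uniform, and those whose signal was less than 2 times its error, were left out. Intensities were taken to log2, the 75th percentile of each array's 43379 non-control spots was subtracted, and spots of 1 probe were averaged. Symbols were matched to the RefSeq gene table of GRCm38.p6, and probe positions are those of mm9 in the array files. Probes with values on over 50% of the arrays of each group were fitted with limma 3.58.1 in R 4.3.3 (lmFit, eBayes, Benjamini-Hochberg over all probes): alcohol against water in a fit with 2 groups and the other tests in one with 4. The fits were tested on simulated data. Alternatives covered the background correction (normexp, offset 50), scaling, the deposited table, filters, slide, replicate number, each array left out, the mean of a gene's probes and the methods' t-test. The named genes were the members, up to 5 genes per list with the smallest unadjusted p under 0.05 (not for late against early drinkers), the partners, and the 10 most alike in pattern. Some genes that this rule named are not reported here. Tmem119, P2ry13, Spi1, Il1b, Tnf, Cd8a, Ccr2 and the genes named for late against early drinkers beyond the members and C1qc were chosen after their values were seen. Members and lists were chosen with earlier results of these data known.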

Additional observations from a re-analysis of the deposited data

Results flagged for a closer look

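Pools that stood apart were sought by the gap of the highest or lowest of the 9 alcohol pools to its nearest neighbour, as a fraction of their range, against the critical value of Dixon's test at 95%. Of 17 measures (16 probes and the mean of the members) 7 passed, where chance gives about 0.85. Late drinker pool 2 was the highest pool on both Trem2 probes (0.543 of the range on the brighter and 0.498 on the other) and on the second Aif1 probe (0.540). Low drinker pool 2 was the highest on both Itgam probes (0.494 and 0.610) and on the second Cx3cr1 probe (0.584). Its array also had the highest 25th percentile of unscaled intensity, as given above. Late drinker pool 1 was the lowest on the brighter Cx3cr1 probe (0.496), at 0.29 with its neighbour at 0.63. Several of these measures share a pool and probes of a gene share a transcript, so the 7 are not independent.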

How the results depend on the processing

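No member passed an adjusted p of 0.05 in any of the 4 tests under any alternative run. For members at an unadjusted p under 0.05, alcohol against water gave 0 with no scaling, with slide as a fixed block and as a random block, and 0 to 1 when an array was left out. High against low drinkers gave 2 with median centring, 1 with no scaling, 1 with normexp, and 0 to 1 when an array was left out. Late against early gave 1 with quantile normalization, median centring and normexp, and 1 to 3 when an array was left out. The F test gave 0 with quantile normalization and slide as a fixed block, 2 with no scaling, and 0 to 2 when an array was left out. The median of the members for alcohol against water was -0.11 with median centring, -0.030 with the mean of a gene's probes and -0.089 to -0.037 when an array was left out. For high against low it was 0.056 with quantile normalization, 0.15 with median centring and with no scaling, 0.11 with slide as a fixed block, -0.024 with the mean of probes and -0.018 to 0.062 when an array was left out. For late against early it was 0.16 with median centring, 0.24 with no scaling, 0.15 with slide as a fixed block, 0.035 with the mean of probes and 0.019 to 0.16 when an array was left out. Several differences changed sign. For alcohol against water, median centring turned Csf1r to -0.034, Trem2 to -0.0051, Itgb2 to -0.054 and Il34 to -0.019, the mean of probes turned Csf1r to -0.018 and Cx3cl1 to -0.0069, and Itgb2 was -0.019 with quantile normalization, -0.026 with slide as a fixed block and -0.0060 as a random block, while Cx3cl1 was -0.090 with the fixed block. Leaving out an array gave ranges that crossed 0 for Csf1r (-0.028 to 0.067), Trem2 (-0.064 to 0.17), P2ry12 (-0.0023 to 0.14), Il34 (-0.0086 to 0.090) and Itgb2 (-0.044 to 0.045), in high against low for Itgam (-0.24 to 0.069) and in late against early for C1qb (-0.13 to 0.14). In high against low, Itgam was 0.0054 with median centring and Csf1r -0.036 with the mean of probes. The cause was not tested. The replicate number was not a pairing (r of same-numbered pools' deviations between -0.09 and 0.18, with a median of -0.0010 in 18 pairs). As a replicate block it left 1 member in alcohol against water, 0 in high against low, 2 in late against early and 1 in the F test at an unadjusted p under 0.05. Of the 16 probes of the members, the second of Cx3cr1 was well above background on 11 of 12 arrays and the rest on all.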
